A study of Macaca mulatta with 16 samples.

Results

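Naive CD4+ T cells were set against naive CD8+ T cells of 2 rhesus macaques, sorted from blood, by the stretches of open chromatin that ATAC-seq found in each. ATAC-seq inserts adapters into accessible DNA with a transposase, and a peak is a stretch called open in 1 library. The 8 naive libraries were 4 of CD4+ and 4 of CD8+ cells, each from 10000 sorted cells, and the other 8 of the series' 16 libraries were of memory cells with the same layout. Each lineage had 1 library from animal RhDBCb and 1 from animal RhM22 before treatment (labelled as treatment none), and 1 from each animal after Kleptose. Kleptose is a brand of 2-hydroxypropyl-beta-cyclodextrin, a cyclic sugar that can take up cholesterol, and was given under the skin at 1 ml/kg per day as a 15% (w/w) solution for up to 120 days. Overlapping peaks of the 8 lists (1 bp or more in common) formed 48145 regions, against 55449 over all 16 libraries, and a region was called open in a library with a peak in it. Libraries of the same animal and time were matched across lineages by their titles, which give the second animal 1 name, although the deposited lists number it differently for CD4+ and CD8+ cells. If those numbers meant different animals, animal and lineage could not be told apart in 4 of the 8 libraries.

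CD4+ T cells read antigen on class II molecules of the major histocompatibility complex and mostly help other immune cells, while CD8+ T cells read it on class I molecules and can kill infected cells. Both lineages come from a shared precursor in the thymus, where opposing transcription factors, ZBTB7B (ThPOK) for CD4+ and RUNX3 for CD8+ cells, fix the choice. Naive cells have left the thymus and have not yet met their antigen. Positions are on the build rheMac10. Genes at these positions are not given, since no annotation of that build was used here, and for the same reason the sorted populations were not checked against marker genes.

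Naive CD4+ and CD8+ cells shared most of their open chromatin. Of the 48145 regions, 28622 (59.4%) were open in all 8 libraries and 4274 (8.88%) in 1. Regions open in 4 of 4 naive CD4 libraries and 0 of 4 naive CD8 libraries numbered 796, which is 1.65% of all regions. The opposite pattern was held by 787 regions, or 1.63%. The 1583 regions of either kind made up 8.11% of the 19523 regions that were not open in all 8 libraries. Below they are called CD4-only and CD8-only regions, with respect to these 8 lists.

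**Figure D1:**
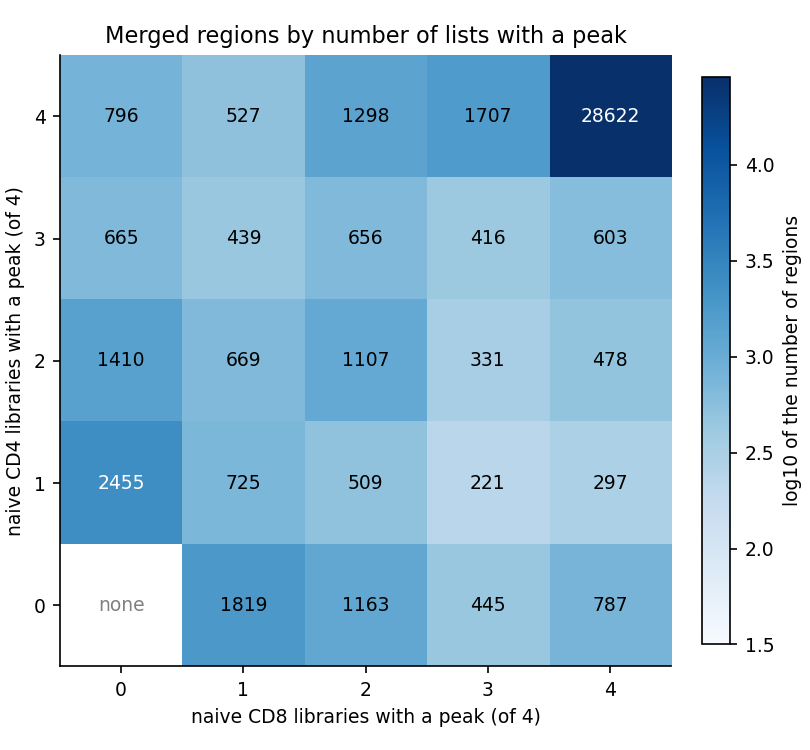
Number of merged regions by how many of the 4 naive CD4 lists (vertical axis) and of the 4 naive CD8 lists (horizontal axis) had a peak, with colour on a log10 scale. The upper right cell holds the 28622 regions open in all 8 lists, the upper left cell the 796 CD4-only regions and the lower right cell the 787 CD8-only regions.

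Tested region by region, presence gave no call. Fisher's exact test, two-sided, was run on the 7449 regions open in 3 to 5 of the 8 lists. Complete separation gave the smallest possible p of 0.0286, reached by all 1583 one-lineage regions, with a Benjamini-Hochberg adjusted p of 0.134. The share called was therefore 0%, with 1583 regions under an unadjusted p of 0.05, and a call at this p would have needed 4257 separated regions. An exact McNemar test over the 4 matched pairs also called 0 regions, none of them under 0.05 before adjustment either, since 4 pairs cannot go below 0.125. The 4 libraries of a lineage came from 2 animals at 2 times. P-values here and below therefore concern these libraries and do not speak to variation between animals in general. Read depth was unknown, and a region without a peak was not detected in that list rather than shown to be closed.

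List length differed between the animals, and the balance of the lineages moved with it. Naive CD4 lists held 40251 and 40842 peaks in RhDBCb before and after Kleptose and 40419 and 40485 in RhM22. Naive CD8 lists held 36307 and 37966 peaks in RhDBCb and 41396 and 41150 in RhM22. The CD8 lists were thus shorter than their CD4 partners in both pairs of RhDBCb and longer in both pairs of RhM22. In RhDBCb alone, 3342 regions were open in both CD4 and neither CD8 library and 1509 the other way, while in RhM22 alone these counts were 1714 and 2348. With every list held to its 36307 peaks of highest area score, they were 2052 and 1915 in RhDBCb and 1743 and 1892 in RhM22. The area score is the authors' peak caller's own value for a peak and is used only within its list.

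At equal list length there were fewer CD4-only and more CD8-only regions. The counts were 658 and 829, in place of 796 and 787. Of the 796 CD4-only regions 416 (52.3%) were still CD4-only at equal length, and of the 787 CD8-only regions 575 (73.1%) were still CD8-only. Regions open in all 4 CD4 lists and in 2 CD8 lists numbered 1298, against 478 for the mirror pattern. In 963 of the 1298 the lists without a peak were the CD8 lists of RhDBCb, the 2 shortest. Of the 478 mirror regions, 227 lacked a peak in both CD4 lists of RhM22 and 106 in both of RhDBCb. Those CD4 lists differed little in length, with 40419 and 40485 peaks in RhM22 and 40251 and 40842 in RhDBCb. Missing peaks thus often went together by animal there as well, and the reason was not tested. At equal length the counts of the 2 patterns were 796 and 524. With full lists but a stricter summit threshold (−log10 p of at least 3.44) the balance went the other way, with 628 CD4-only and 479 CD8-only regions.

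CD8-only regions had stronger peaks within their full lists than CD4-only regions, as a description of sets chosen by presence. The comparison was not repeated at equal list length. A CD8-only region had to have a peak in the short CD8 lists of RhDBCb, and how far this shaped the difference was not tested. Their median percentile of area score was 25.9 (quartiles 17.3 and 37.8), and for CD4-only regions it was 21.1 (13.9 and 29.8). The medians of the single libraries ran from 24.8 to 29.6 in the 4 CD8 lists and from 19.9 to 22.9 in the 4 CD4 lists, without overlap. Above the 50th percentile lay 70 CD8-only and 21 CD4-only regions, and above the 75th 7 and 1. Widths were alike, with medians of 762 bp (CD8-only) and 754 bp (CD4-only), against 1464 bp and a median percentile of 62.2 in regions open in all 8 libraries. Regions open in 1 library had a median width of 558 bp and a median percentile of 5.42.

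The strongest CD8-only region lay on chromosome 13 from 19023326 to 19027550. Its percentile in the naive CD8 lists was 92.4 and 90.4 in RhDBCb before and after Kleptose, and 94.4 and 93.9 in RhM22. Its peaks were 3701, 3482, 4200 and 3991 bp wide in the same order, and none of the 4 CD4 lists had a peak there. The next region, on chromosome 11 from 9209770 to 9211477, had percentiles of 80.9, 82.8, 82.8 and 79.3. Chromosome 7 held a pair of close CD8-only regions, from 27565598 to 27567745 (percentile 78.5 ± 3.21, SD, n = 4) and from 27568138 to 27569790 (76.5 ± 1.60, SD, n = 4). Chromosome 11 held another pair, from 9353393 to 9355672 (78.2 ± 1.38, SD, n = 4) and from 9366227 to 9368743 (78.1 ± 2.32, SD, n = 4). All 6 of these regions were also open in 4 of 4 memory CD8 libraries and 0 of 4 memory CD4 libraries, lists that had no part in choosing them.

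The other 4 of the 10 strongest CD8-only regions differed more in where else they were open. That on chromosome 11 from 91748075 to 91750778 was open in no memory library, and its percentiles in naive CD8 lists were 64.7 and 71.4 in RhDBCb and 84.6 and 83.6 in RhM22, with both values of one animal above both of the other. A region on chromosome 14 from 115822201 to 115823820 (72.4 ± 2.52, SD, n = 4) was open in 4 memory CD8 and 0 memory CD4 libraries. Those on chromosome 16 from 62967975 to 62969926 (74.9 ± 3.13, SD, n = 4) and chromosome 19 from 51162880 to 51165417 (73.0 ± 1.93, SD, n = 4) were open in all 4 memory CD8 libraries, and in 1 and 3 memory CD4 libraries. All 10 remained CD8-only at equal list length.

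Among CD4-only regions the strongest was on chromosome 10 from 88199132 to 88202882. Its percentiles were 80.3 and 83.0 in RhDBCb before and after Kleptose and 85.6 and 83.8 in RhM22, with peaks 2885, 3122, 3376 and 3736 bp wide. It was open in 4 of 4 memory CD4 and 0 of 4 memory CD8 libraries. The second, on chromosome 12 from 91362446 to 91374002, was the widest of the 20 named one-lineage regions, and its values followed the time of sampling. Its peaks covered 11125 bp in RhDBCb and 10798 bp in RhM22 before Kleptose, and 5307 and 4744 bp after, with percentiles of 96.4 and 86.4 before and 52.6 and 57.5 after. With the stricter summit threshold, or with peaks required over at least 50% of the region, 2 of the 4 naive CD4 lists were left. All 8 memory libraries had a peak in it, so its absence from the naive CD8 lists was not shared by memory CD8 cells.

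Further strong CD4-only regions were steadier across the 4 lists. On chromosome 3 from 84287513 to 84289380 the percentile was 62.4 ± 1.16 (SD, n = 4), with memory CD4 peaks in 4 libraries and memory CD8 peaks in 0. On chromosome 11 from 129923849 to 129925633 (58.0 ± 2.21, SD, n = 4) and chromosome 15 from 37732620 to 37734213 (55.2 ± 1.40, SD, n = 4), 1 memory CD4 and no memory CD8 library had a peak. The region on chromosome 6 from 54856680 to 54857935 (54.8 ± 3.94, SD, n = 4) was open in 4 memory CD4 and 0 memory CD8 libraries. Regions on chromosome 15 from 102837236 to 102838504 (61.2 ± 2.00, SD, n = 4) and chromosome X from 132783025 to 132784330 (55.1 ± 0.255, SD, n = 4) were open in all 8 memory libraries. The remaining 2 of the 10 varied by animal. On chromosome 11 from 33773550 to 33775910 the percentiles were 69.2 and 67.3 in RhDBCb and 39.7 and 41.1 in RhM22, and on chromosome 1 from 66040124 to 66041499 they were 63.3 and 64.7 against 49.6 and 52.7. Peaks covered at least 50% of the former region in 2 of the 4 CD4 libraries. All 10 remained CD4-only at equal list length.

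**Figure D2:**
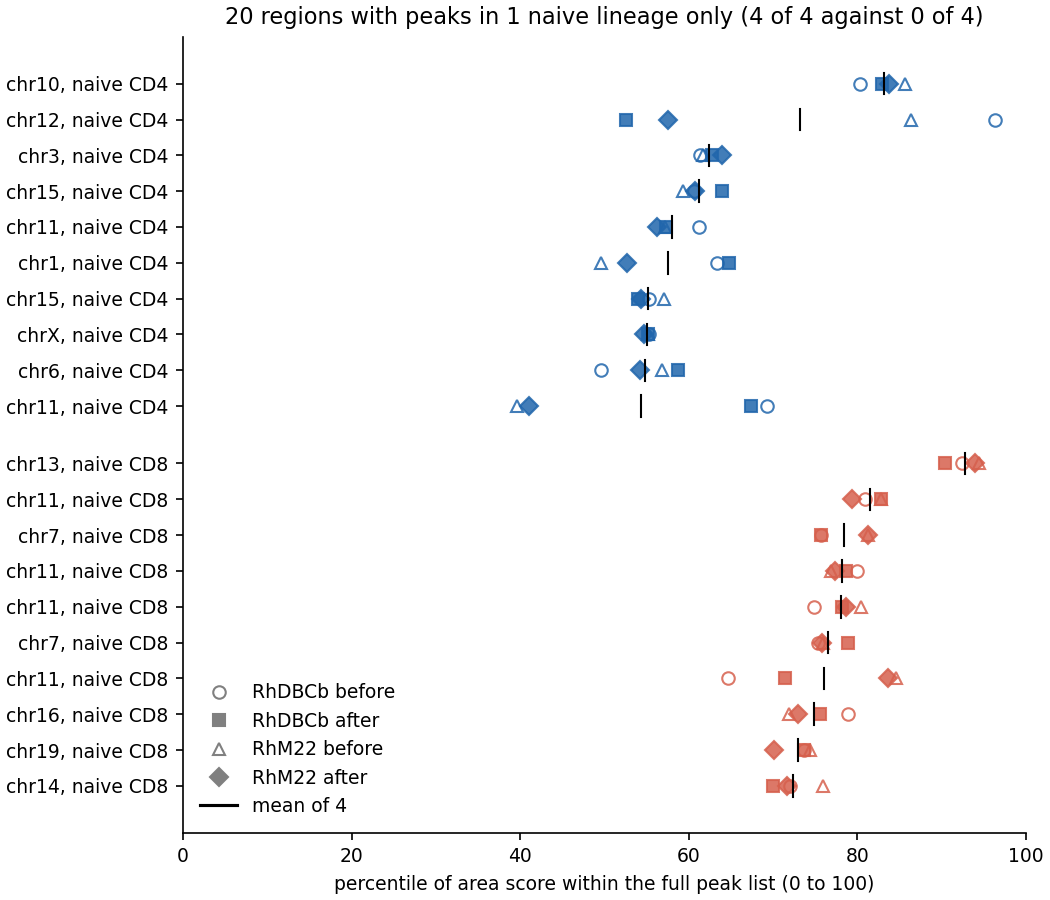
Percentile of area score within each full list (horizontal axis) for the 10 strongest CD4-only regions (blue, upper rows) and the 10 strongest CD8-only regions (red, lower rows), with 1 symbol per library and a black line at the mean of the 4. The CD8-only regions sit higher, with means from 72.4 to 92.8 against 54.3 to 83.2, and the chromosome 12 region shows the widest spread, from 52.6 to 96.4.

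One-lineage regions that lay near each other nearly always favoured the same lineage. Of 304 neighbouring pairs at most 50 kb apart, 290 (95.4%) were both CD4-only or both CD8-only and 14 were mixed. In all, 272 CD8-only regions (34.6%) stood in 103 groups of at least 2, and 205 CD4-only regions (25.8%) in 84 groups. These shares were not set against those of other regions, and pairs within a group are not independent of each other. Most one-lineage regions stood alone, 515 CD8-only and 591 CD4-only. The median distance to the nearest region open in all 8 libraries was 12.9 kb for CD8-only and 9.52 kb for CD4-only regions, against 8.91 kb for the 17940 other regions not open in all 8.

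The largest group held 11 CD8-only regions over 113.8 kb of chromosome 13, from 19004275 to 19118047, and includes the strongest CD8-only region. Naive CD8 peaks covered 36.6 and 35.5 kb of this span in RhDBCb before and after Kleptose and 41.4 and 43.6 kb in RhM22. Naive CD4 peaks covered 4.97 ± 0.260 kb (SD, n = 4), in 4 peaks per library. These were the 4 regions of the span open in all 8 lists, and another 3 regions were open in 1, 2 and 3 CD8 lists and no CD4 list. Memory CD8 libraries covered 35.8 ± 2.88 kb (SD, n = 4) and memory CD4 libraries 1.87 ± 0.594 kb (SD, n = 4). Peaks of either CD4 population thus took up a small part of a stretch in which naive CD8 peaks covered 39.3 ± 3.84 kb (SD, n = 4). Of the 11 CD8-only regions 5 were open in all 4 memory CD8 and no memory CD4 library, and 3 were open in no memory library.

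Other CD8-only groups differed in what memory cells kept. On chromosome 11 from 9353393 to 9482204, 9 CD8-only regions lay among 14, none open in all 8 lists. Naive CD8 peaks covered 13.5 ± 0.608 kb (SD, n = 4) of it, naive CD4 peaks at most 0.399 kb and memory CD8 peaks 26.8 ± 5.90 kb (SD, n = 4), and 8 of the 9 regions were open in all 4 memory CD8 and no memory CD4 libraries, the ninth in 3 memory CD8 libraries. On chromosome 7 from 154624111 to 154709009 a group of 8 showed the opposite order within the CD8 lineage. Naive CD8 peaks covered 13.9 ± 2.65 kb (SD, n = 4) there, memory CD8 peaks 5.41 ± 2.10 kb (SD, n = 4), naive CD4 peaks 2.50 ± 0.654 kb (SD, n = 4) and memory CD4 peaks 0.299 ± 0.598 kb (SD, n = 4), and 6 of the 8 regions were open in no memory library.

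The largest CD4-only group held 10 regions over 106.5 kb of chromosome X, from 132717159 to 132823664. Naive CD4 peaks covered 15.4 and 13.4 kb of it in RhDBCb before and after Kleptose and 16.0 and 15.5 kb in RhM22. Naive CD8 peaks covered 1.38 and 1.14 kb in RhDBCb and 3.42 and 3.77 kb in RhM22, below every CD4 value. Of its 10 CD4-only regions 6 were open in all memory CD4 and no memory CD8 libraries and 2 in all 8 memory libraries. Of 6 groups of 4 CD4-only regions, the 2 with the highest mean percentile lay on chromosome 9 from 75871930 to 75928745, where naive CD4 peaks covered 8.01 ± 1.68 kb (SD, n = 4) against 1.46 ± 0.435 kb (SD, n = 4) in naive CD8 lists, and on chromosome 1 from 96537557 to 96639831, with 17.1 to 19.2 kb against 7.32 to 10.2 kb. All 8 regions of these 2 groups were open in 4 memory CD4 and 0 memory CD8 libraries, as were 4, 1, 1 and 0 of the 4 regions in the remaining groups of that size.

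**Figure D3:**
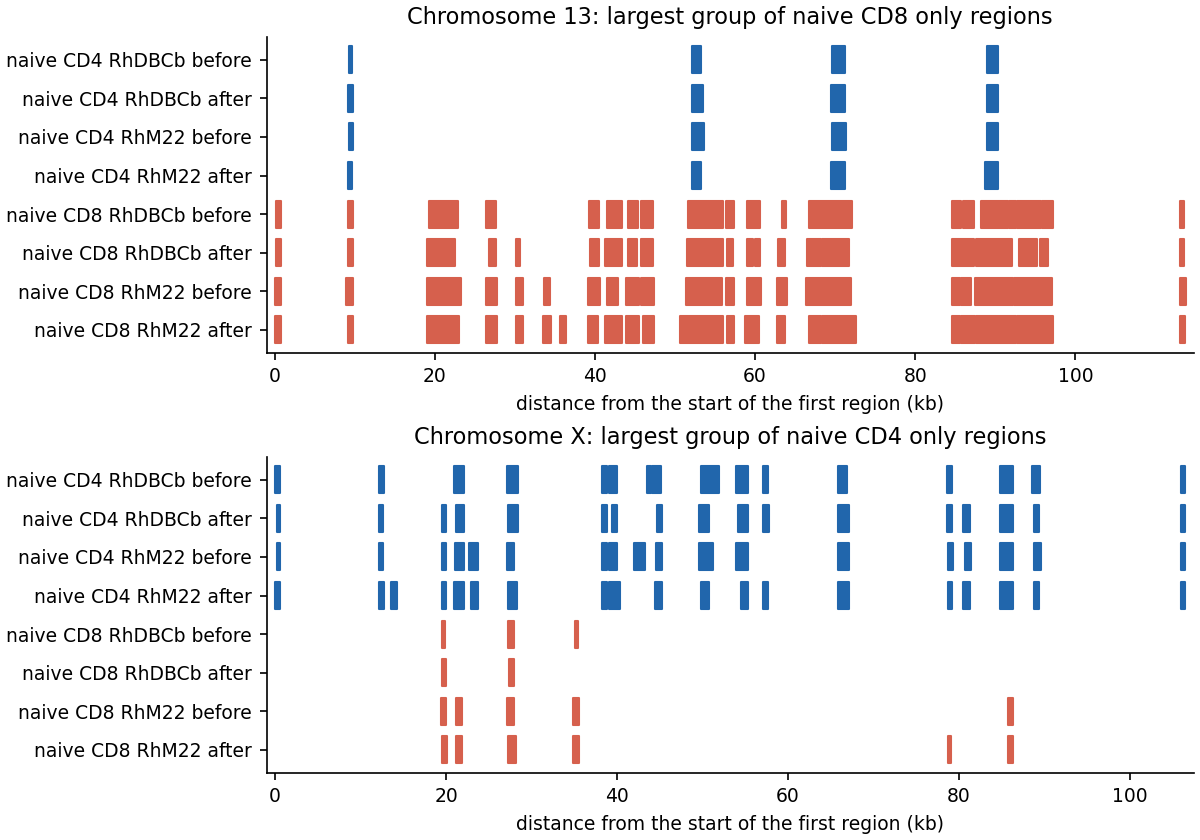
Peaks of each naive list (bars, 1 row per library, blue CD4 and red CD8) along the largest CD8-only group on chromosome 13 (upper panel) and the largest CD4-only group on chromosome X (lower panel), by distance in kb from the start of the first region. In the upper panel each CD4 list has 4 peaks and each CD8 list 20 to 22, and in the lower panel CD4 lists have 16 to 19 peaks and CD8 lists 2 to 6.

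Among the 28622 regions open in all 8 libraries, peaks were wider in naive CD4 cells at 505 regions (1.76%) and wider in naive CD8 cells at 148 (0.517%). Width is the number of bases of a region that a library's peaks cover, tested on the log2 scale with limma at a Benjamini-Hochberg adjusted p of 0.05. For memory libraries, which did not form the regions, it is the full width of all peaks overlapping the region, parts outside it included. The 2860 regions with every CD4 width above every CD8 width made up 9.99% of those tested, and the 588 with the reverse 2.05%. CD4 lists had the wider peaks in general, with a median difference over all tested regions of -0.08 (naive CD8 minus naive CD4, log2). With widths centred on each library's median, which shifted that median to 0.04, the split of calls became 345 wider in CD8 and 325 wider in CD4. With the matched pair as a block, limma called 60 wider in CD8 and 188 wider in CD4. Within RhDBCb alone (2 against 2) it called 1 and 0, and within RhM22 alone 0 and 0.

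The largest difference in width was again in the chromosome 13 group, in the region from 19088843 to 19101436. Naive CD8 peaks covered 11094 and 10451 bp in RhDBCb before and after Kleptose and 11676 and 12120 bp in RhM22, while naive CD4 peaks covered 1403, 1402, 1410 and 1603 bp. That is 7.79-fold wider in CD8 (log2 difference 2.96 ± 0.06 SE, limma adjusted p = 6.64e-07). Memory CD8 peaks overlapping this region of 12594 bp were 11716, 11510, 12959 and 11272 bp wide in all, parts outside it included, and no memory CD4 library had a peak. The second, 5435 bp long and in the same group from 19054841 to 19060275, had 4411, 4451, 4496 and 5413 bp in naive CD8 lists and 1175, 1395, 1567 and 1155 bp in naive CD4 lists (3.56-fold, limma adjusted p = 4.17e-04).

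Away from chromosome 13 the regions wider in CD8 were smaller. On chromosome 2 from 129826282 to 129828283 the width was 429 ± 53.5 bp in naive CD4 and 1505 ± 286 bp in naive CD8 lists (SD, n = 4 each). The region on chromosome 19 from 304705 to 307262 had 685 ± 166 and 2322 ± 83.7 bp (SD, n = 4 each), and that on chromosome 9 from 125133808 to 125136011 had 652 ± 275 and 1999 ± 162 bp (SD, n = 4 each). Their log2 differences were 1.80, 1.80 and 1.69, with limma adjusted p of 0.00148, 0.00289 and 0.0125. All 3 were open in all 8 memory libraries. At equal list length these 3 were not among the regions open in all 8 naive lists, so their widths were not tested there.

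The regions wider in CD4 by most were led by one on chromosome 6 from 54648160 to 54654507. Naive CD4 peaks covered 6119 and 4825 bp in RhDBCb and 5423 and 4680 bp in RhM22, and naive CD8 peaks 1376, 606, 902 and 918 bp. The log2 difference was -2.52 ± 0.22 (SE, limma adjusted p = 0.00178), or 5.74-fold. In memory cells the lineages were closer, with 6083, 6274, 6266 and 5780 bp in CD4 and 5140, 4583, 4759 and 3803 bp in CD8 libraries. On chromosome 11 from 6952782 to 6957802, naive CD4 peaks covered 4960, 4715, 5010 and 4834 bp and naive CD8 peaks 1095, 661, 1651 and 1790 bp (4.03-fold, limma adjusted p = 0.0123), and memory cells went further, with 4937, 4809, 4972 and 4853 bp in CD4 libraries and no peak in any CD8 library. A region on chromosome 5 from 98181149 to 98183353 followed the same pattern, with 1801 ± 56.0 bp in naive CD4 (SD, n = 4) and 428, 378, 373 and 621 bp in naive CD8 lists (limma adjusted p = 0.00116) and no memory CD8 peak. At equal list length this chromosome 5 region was not open in all 8 naive lists and was not tested.

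Calls at the last 2 of these regions depended on which libraries were used, while the differences stayed about as large. On chromosome 20 from 18710969 to 18714611 naive CD4 peaks covered 2952 to 3485 bp and naive CD8 peaks 395, 1662, 580 and 595 bp (limma adjusted p = 0.0279). The call was lost with the block (adjusted p = 0.0678) and on leaving out any 1 library other than naive CD8 of RhDBCb after Kleptose, with limma adjusted p of 0.0521 to 0.0853 and log2 differences of -1.92 to -2.22 (-2.19 with all libraries). On chromosome 2 from 10756456 to 10761586 the widths were 2543 to 4443 bp in naive CD4 and 453 to 1489 bp in naive CD8 lists (limma adjusted p = 0.0207). That call was lost without any 1 of 5 libraries, namely naive CD4 of RhDBCb before, RhDBCb after and RhM22 before, and naive CD8 of RhDBCb after and RhM22 after, with limma adjusted p of 0.0520 to 0.0678 and log2 differences of -1.97 to -2.18 (-2.11 with all libraries).

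**Figure D4:**
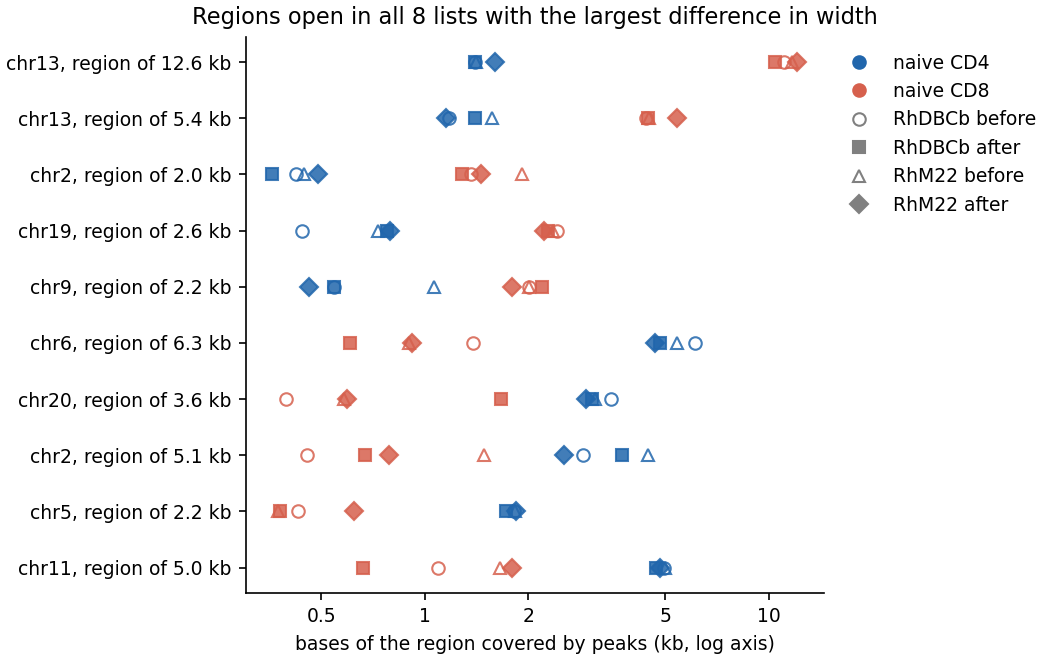
Bases covered by peaks (kb, log axis) in the 5 regions most widened in naive CD8 (upper rows) and the 5 most widened in naive CD4 cells (lower rows), with 1 symbol per library, blue for CD4 and red for CD8. In the top row the CD8 lists stand at 10.5 to 12.1 kb and the CD4 lists at 1.40 to 1.60 kb. Only regions without overlap between the lineages were eligible, so the lack of overlap in each row follows from the choice.

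Ranks separated the lineages at more regions than widths did. Each library's summed area score was ranked among the 28622 shared regions, so that every library was ranked over the same regions, and the rank was expressed as a percentile. By limma 1714 regions (5.99%) ranked higher in naive CD8 and 1784 (6.23%) in naive CD4 cells. Groups did not overlap at 2965 regions (10.4%) with CD8 above and 2571 (8.98%) with CD4 above. With the matched pairs as a block the calls were 3071 and 3302, and 3483 of the 3498 regions called without it were called with the same direction. By percentile within the full list in place of the shared regions, the calls were 866 in CD8 and 1365 in CD4. Within 1 animal the calls were 715 and 989 in RhDBCb and 1285 and 1158 in RhM22. A rank is a place among shared regions and not an amount of open chromatin.

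Among regions ranked higher in CD8, the 2 chromosome 13 regions differed most. The one from 19088843 to 19101436 stood at the 99.7th percentile in all 4 naive CD8 lists and at 13.7, 3.61, 19.3 and 8.55 in the naive CD4 lists. The one from 19054841 to 19060275 stood at 94.4 ± 0.495 in naive CD8 and 24.7 ± 5.65 in naive CD4 lists (SD, n = 4 each). Next came the chromosome 19 region from 304705 to 307262 (72.0 ± 4.69 against 4.17 ± 3.37, SD, n = 4 each) and one on chromosome 16 from 50801821 to 50805201 (67.5 ± 1.95 against 5.73 ± 4.08). A region on chromosome 11 from 3343528 to 3345660 ranked at 70.5 and 76.9 in naive CD8 lists of RhDBCb and 59.3 and 60.2 in those of RhM22, against 5.09, 23.3, 1.55 and 2.93 in naive CD4 lists, and had no peak in any memory library. The limma adjusted p of these 5 ranged from 4.89e-06 to 4.97e-04. At equal list length the regions on chromosomes 19 and 16 were not open in all 8 naive lists and were not tested.

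Higher ranks in CD4 were led by the chromosome 11 region from 6952782 to 6957802, at 96.8, 95.9, 96.7 and 95.6 in naive CD4 and 16.6, 11.4, 38.0 and 42.7 in naive CD8 lists (limma adjusted p = 4.34e-04). On chromosome 7 from 59357456 to 59361179 the ranks were 78.5 ± 3.64 in naive CD4 and 13.4 ± 8.59 in naive CD8 lists (SD, n = 4 each), and memory CD4 peaks were found in 4 and memory CD8 peaks in 1 library. The region on chromosome 3 from 181998585 to 182003229 was uneven between animals, with naive CD8 ranks of 1.33 and 17.1 in RhDBCb and 52.4 and 56.3 in RhM22, all below the naive CD4 range of 80.8 to 87.4. Its limma adjusted p was 0.0173, but 0.0614 by percentile within the full list and 0.0531 on the logit scale of the rank. The chromosome 6 and chromosome 20 regions named for width completed the list, at 88.9 ± 3.12 against 24.6 ± 10.3 and 59.1 ± 5.15 against 7.85 ± 10.7 (SD, n = 4 each).

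The point of highest signal, the summit, of a region's strongest peak was also compared. Over the 28622 shared regions the median absolute shift between the lineages, in either direction, was 9.5 bp. Summits of the lineages did not overlap in 758 regions (2.65%), which is no result in itself, since complete separation of 4 against 4 has an exact two-sided p of 0.0286 in a single region. In 104 of the 758 regions the mean shift was at least 500 bp. In 25 of the 28622 shared regions the shift was at least 500 bp and the summits of each lineage lay within 200 bp of each other. The 4 with the longest shifts, chosen after their values were seen, were on chromosome 12 from 121875252 to 121884243 (5791 bp) and from 91102484 to 91111026 (5293 bp), on chromosome 16 from 61951816 to 61958356 (5264 bp), and on chromosome 6 from 54648160 to 54654507 (4805 bp). In the last, the region named for its width above, naive CD4 summits lay between 54653522 and 54653526 and naive CD8 summits between 54648715 and 54648722.

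Regions that separated the lineages in 1 animal were open more often in the same lineage of the other animal than in the opposite lineage, in means over its libraries. Of all 48145 regions, 78.6% to 79.4% were open in each CD4 library and 69.9% to 80.8% in each CD8 library, and in all 8 readings within the same lineage the chosen regions were open less often than that library's share. CD8-only regions of one animal (1509 in RhDBCb, 2348 in RhM22) were open in 65.9% ± 7.77 (SD, n = 4) of cases in the other animal's CD8 libraries and in 15.7% ± 4.63 (SD, n = 4) in its CD4 libraries. CD4-only regions (3342 and 1714) were open in 70.2% ± 3.97 (SD, n = 4) in the other animal's CD4 libraries and in 24.9% ± 18.4 (SD, n = 4) in its CD8 libraries. The last value had a wide range, 41.0% and 40.6% in the CD8 libraries of RhM22 and 8.11% and 9.92% in those of RhDBCb, whose lists were short. At equal list length it was 31.5% and 29.1% in RhM22 and 17.8% and 17.0% in RhDBCb.

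Regions were also chosen at 1 time and read at the other. CD8-only regions of one time (1214 before, 1404 after) were open at the other in 85.3% ± 7.89 (SD, n = 4) of cases in CD8 and 11.7% ± 2.50 (SD, n = 4) in CD4 libraries. For CD4-only regions (1806 and 1684) the values were 77.6% ± 1.95 (SD, n = 4) in CD4 and 16.0% ± 7.50 (SD, n = 4) in CD8 libraries. Against each library's share over all regions, the readings within the same lineage were higher in 4 of 4 CD8 and lower in 4 of 4 CD4 libraries. These libraries are of the same animals as those that chose the regions. The limma interaction of lineage with time was tested at the 28622 regions open in all 8 libraries. No region passed, for width (smallest adjusted p = 1.00, 956 regions at an unadjusted p under 0.05) or for rank (1.00, 343 regions). That fit held no term for animal, so differences between the animals counted as spread. It therefore cannot show that the lineage difference was the same at both times. The interaction with animal, fitted without a term for time, also passed at 0 regions, for width (smallest adjusted p = 0.0821, 2191 regions at an unadjusted p under 0.05) and for rank (0.148, 2292 regions). As shares of the 28622 regions tested, the unadjusted counts for time lay under 0.05 and those for animal above it. Whether these shares differed from chance was not tested.

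Differences between naive lineages carried over in part to memory cells, whose lists had no part in the choice. CD4-only regions were open in 71.7% and 76.0% of cases in memory CD4 libraries of RhDBCb before and after Kleptose and in 74.7% and 71.0% in those of RhM22. In memory CD8 libraries the values were 35.6%, 32.0%, 29.5% and 28.3%. CD8-only regions were open in 24.0%, 28.8%, 26.9% and 24.0% of cases in memory CD4 and in 64.3%, 66.7%, 69.0% and 67.7% in memory CD8 libraries. Over all 48145 regions these shares were 75.8% ± 1.38 in memory CD4 and 70.8% ± 1.15 in memory CD8 libraries (SD, n = 4 each). The lineages differed by -42.0 and 41.0 percentage points (memory CD8 minus memory CD4), in 4 of 4 pairs each, with an exact two-sided permutation p = 0.0286 and adjusted p = 0.0286 over the 2 tests, the smallest that 4 against 4 allows. An exact sign-flip test over the 4 matched pairs gave p = 0.125, its own smallest value. The same permutation p was reached over all regions (-5.05 points) and over those open in all 8 naive lists (-3.98 points), so the p does not set the one-lineage regions apart from these. Regions chosen in RhM22 alone and read in memory libraries of RhDBCb showed the same order, with CD4-only regions open in 60.9% and 66.9% (memory CD4) against 34.2% and 34.1% (memory CD8), and CD8-only regions in 22.2% and 26.8% against 42.5% and 45.5%.

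**Figure D5:**
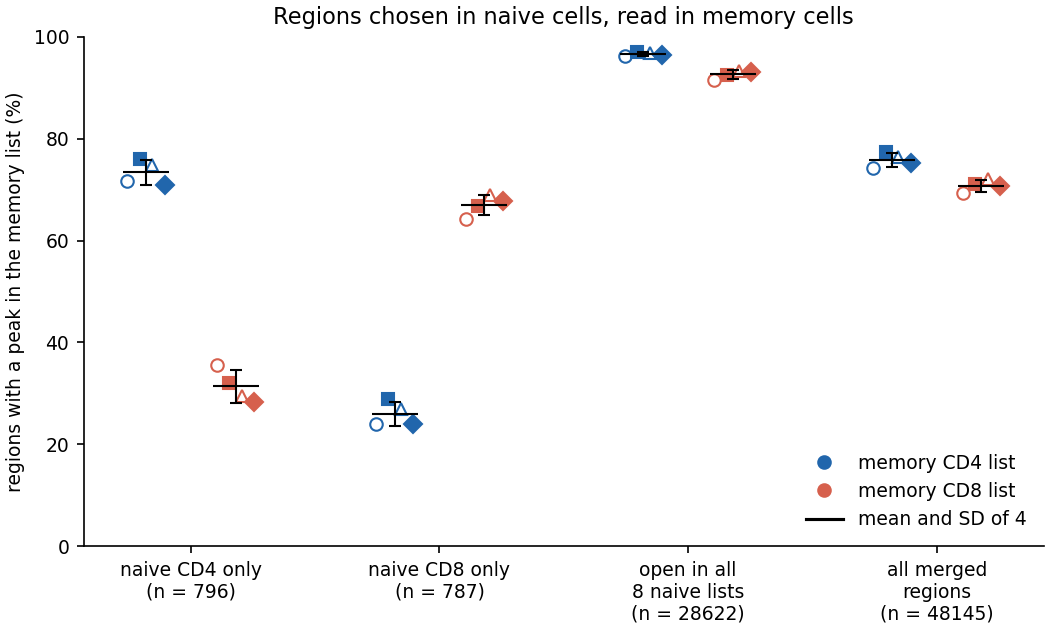
Share of regions with a peak in each memory CD4 (blue) and memory CD8 (red) list, for regions chosen in naive cells, with 1 symbol per library (open before and filled after Kleptose) and a black line and bar for the mean and SD of the 4. CD4-only regions stand at 71.0% to 76.0% in memory CD4 and 28.3% to 35.6% in memory CD8 lists, and CD8-only regions at 24.0% to 28.8% and 64.3% to 69.0%.

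Single regions took different courses in memory cells. Of the 787 CD8-only regions 224 (28.5%) were open in 4 of 4 memory CD8 and 0 of 4 memory CD4 libraries, 142 (18.0%) in all 8 memory libraries and 212 (26.9%) in none. Of the 796 CD4-only regions 179 (22.5%) kept complete separation, 158 (19.8%) were open in all 8 and 15.2% in none. Over all 48145 regions 1.55% were open in all 4 memory CD8 and no memory CD4 libraries, 2.90% the other way, 12.6% in no memory library and 58.3% in all 8. In neither set did a region separate the memory lineages completely in the opposite direction, with 0 of 787 and 0 of 796. Regions that kept the separation had the higher median percentiles in naive lists, 31.5 (CD8-only) and 24.8 (CD4-only), against 24.3 and 18.3 for those open in no memory library.

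Regions open in 1 naive lineage and in all memory libraries included, for CD8, chromosome 7 from 55219401 to 55221875 (percentile 65.6 ± 3.45, SD, n = 4), chromosome 1 from 199827912 to 199830830 (63.1 ± 7.06) and from 18884410 to 18885813 (62.7 ± 3.03). For CD4 they were those on chromosomes 12, 15 and X described above. Regions of naive cells alone included, for CD8 and besides the chromosome 11 region above, chromosome 11 from 17400700 to 17401926 (54.3 ± 2.35, SD, n = 4) and chromosome 5 from 88003379 to 88004307 (52.7 ± 4.39). For CD4 they were chromosome 6 from 35438299 to 35440302 (41.9 ± 7.45, SD, n = 4), chromosome 1 from 206092732 to 206095462 (40.0 ± 9.26) and chromosome 8 from 23418122 to 23420822 (39.6 ± 4.35). With the stricter summit threshold the chromosome 6 region was open in 3 of 4 naive CD4 lists, and with peaks required over at least 50% of a region so was the chromosome 8 region. The region on chromosome 1 stood in a group of 4 CD4-only regions from 206048676 to 206098624, all 4 open in no memory library.

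Shared regions that differed in width or rank between the naive lineages leaned the same way in memory cells. Memory values were again those of whole overlapping peaks. Of the regions wider in naive CD8 cells 97 were open in all 16 libraries, and 94 of them (96.9%) had the larger mean log2 width in memory CD8 cells. Of those wider in naive CD4 cells 397 were open in all 16, and 344 (86.6%) were wider in memory CD4 cells. Over all 25035 shared regions open in all 16 libraries 50.1% were wider and 50.2% ranked higher in memory CD8 cells. For ranks, 1228 of 1378 regions (89.1%) ranked higher in naive CD8 and 1242 of 1357 (91.5%) ranked higher in naive CD4 cells had the same direction in memory cells. The median log2 width difference (CD8 minus CD4) of these regions was 0.47 in memory and 0.63 in naive cells for those wider in CD8, and -0.28 and -0.60 for those wider in CD4, where the naive values had chosen the regions.

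One-lineage regions were found on all 21 chromosomes, in uneven numbers. Chromosome 7 held 84 CD8-only regions (2.38% of its 3523 regions) and 43 CD4-only regions (1.22%), where the shares over all chromosomes were 1.63% and 1.65%. Chromosome 2 also held more CD8-only than CD4-only regions, 64 (2.19%) against 39 (1.33%). The highest CD8-only share was that of chromosome 12, with 47 regions (2.63%), where the CD4-only share was raised as well, with 40 (2.24%). Chromosomes X, 9, 8 and 19 leaned the other way, with 22, 53, 43 and 28 CD4-only regions against 8, 32, 27 and 15 CD8-only regions. In the same order, 1.70%, 2.27%, 2.49% and 1.16% of their regions were CD4-only and 0.619%, 1.37%, 1.56% and 0.620% CD8-only. Chromosome 20 also leaned to CD4, with 35 CD4-only (2.03%) against 22 CD8-only regions (1.27%). On X and 19 the CD4-only share was thus near or below that over all chromosomes, and the CD8-only share was low. On X, 10 of the 22 CD4-only regions stood in 1 group. These counts were not tested, since regions of a group are not independent of each other.

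Properties of whole lists did not pass a test between the lineages. Bases covered were 60.3 ± 2.34 Mb in naive CD4 and 55.4 ± 4.39 Mb in naive CD8 lists (SD, n = 4 each), lower in CD8 in 4 of 4 pairs (exact two-sided permutation p = 0.114, adjusted p = 0.229 over 4 tests). The median peak width was 1143 ± 44.0 bp in CD4 and 1085 ± 22.7 bp in CD8 lists, lower in CD8 in 4 of 4 pairs (exact permutation p = 0.0571, adjusted p = 0.229). The share of peaks on X was 2.67% ± 0.125 and 2.55% ± 0.138, lower in CD8 in 4 of 4 pairs (exact permutation p = 0.171, adjusted p = 0.229). The number of peaks was 40499 ± 249 in CD4 and 39205 ± 2484 in CD8 lists (exact permutation p = 0.429, adjusted p = 0.429).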

How the data were processed

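Peak lists came from ATAC-seq libraries amplified for 11 to 15 cycles, per the labels' protocols. The submitters' processing notes name cutadapt 1.18, Bowtie2 2.3.4.1, Genrich 0.6 and the build rheMac10. Settings, read shifting and duplicate removal were not given in the sources used here. For each library the authors deposited 1 list, with an area score (at least 200.0 in every list) and a −log10 p at the summit per peak. Depth was unknown, so no interval from counts is given.

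Lists of the 8 naive libraries were merged here. Widths and ranks were tested with limma 3.58.1 (R 4.3.3, trend), other tests with scipy 1.17.1, numpy 2.4.6 and pandas 2.3.3 in Python 3.11.15, with Benjamini-Hochberg adjustment and a threshold of 0.05. Scripts were tested on simulated data. The gene names and marker checks that had been planned were not made, since no annotation of rheMac10 was used. The regions and tests were chosen with earlier results of these data known. Named regions are, per direction, the 10 one-lineage regions of highest mean percentile, the 5 largest called changes in width and in rank without overlap, the 3 largest groups (ties by mean percentile), and the 3 strongest regions open in all 8 or in no memory libraries.

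Matched libraries are of the same animal and time, per the titles. Their log2 widths deviated together, with correlations of 0.206 to 0.285, and each of the 4 naive CD4 libraries correlated best with its matched CD8 library. The margin was smaller in RhM22. Matched values there were 0.225 and 0.206, against at most 0.184 and 0.146 with another naive CD8 library. In RhDBCb they were 0.285 and 0.270, against at most 0.0591 and 0.0462. No 2 lists were alike enough to be 1 library (the closest pair differed in 4397 regions). Alternatives were equal list length, a stricter summit threshold (−log10 p of at least 3.44), coverage of at least 50% of a region, windows of 500 bp around summits, autosomes only, other scales of width and rank, the pair as a block, and leaving out libraries. Each animal alone for widths and ranks, memory readings of regions from 1 animal, and leaving out the short lists were added after the data were examined, as were the summits.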

Additional observations from a re-analysis of the deposited data

Results flagged for a closer look

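The number of peaks moved in opposite directions in the 2 animals. The mean difference (naive CD8 minus naive CD4) was -3410 peaks in RhDBCb, with CD8 lower at both times, and 821 peaks in RhM22, with CD8 higher at both times. This difference between animals was not tested.

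In 9 of the 80 groups of 4 values checked, 1 library stood far from the other 3 by Dixon's test. Chance sets apart about 1 in 20 such groups. In the chromosome 7 region from 27568138 to 27569790 the highest naive CD8 percentile, 78.8, was that of RhDBCb after Kleptose. Among widths, the naive CD4 value of 1603 bp in the chromosome 13 region from 19088843 to 19101436 and the naive CD8 value of 5413 bp in that from 19054841 to 19060275 were both of RhM22 after Kleptose. The naive CD4 width of 1061 bp on chromosome 9 from 125133808 to 125136011 was of RhM22 before Kleptose. The naive CD8 width of 1662 bp on chromosome 20 from 18710969 to 18714611 and the naive CD4 width of 1718 bp on chromosome 5 from 98181149 to 98183353 were of RhDBCb after Kleptose. Ranks set apart in the same way were 23.3 in naive CD4 on chromosome 11 from 3343528 to 3345660, 9.23 in naive CD8 on chromosome 6 from 54648160 to 54654507 and 23.8 in naive CD8 on the chromosome 20 region, all of RhDBCb after Kleptose.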

How the results depend on the processing

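Depth is unknown, and a shallow library cannot be told apart from less open chromatin. One-lineage counts stayed within 1.5 times at equal list length, with 50% coverage, in windows of 500 bp, on autosomes and with any 1 library left out (843 to 1003 CD4-only and 828 to 1027 CD8-only for the last). At the stricter summit threshold 479 CD8-only regions were left beside 628 CD4-only ones. With 2 libraries against 2 the CD4-only and CD8-only counts were 3342 and 1509 in RhDBCb and 1714 and 2348 in RhM22, and without the 2 naive CD8 libraries of RhDBCb they were 988 and 1717; fewer libraries have to be separated in these. The presence test called 0 regions under every alternative run, the replicate block included (smallest adjusted p from 0.120 to 0.5295).

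Counts by width depended most on the setting. With the replicate block they were 60 (CD8) and 188 (CD4), and 216 regions called without the block were also called with it in the same direction. Centring gave 345 and 325, regions with 1 peak in each list 309 wider in CD4, RhM22 alone 0 and 0, and RhDBCb alone 1 and 0. Leaving out 1 library gave 78 to 110 wider in CD8 and 210 to 532 wider in CD4. The CD8 count fell by over 1.5 times without naive CD4 of RhDBCb before (89), RhM22 before (78) or RhM22 after (97), or naive CD8 of RhDBCb after (80), RhM22 before (85) or RhM22 after (87). The CD4 count did so without naive CD4 of RhDBCb before (210), RhM22 before (218) or RhM22 after (332), or naive CD8 of RhDBCb before (326) or RhDBCb after (276). Counts by rank were 3071 (CD8) and 3302 (CD4) with the replicate block, 866 in CD8 by percentile within the full list, 715 and 989 in RhDBCb alone and 1158 in CD4 in RhM22 alone. Leaving out 1 library gave 1215 to 1453 and 1140 to 1661, the lowest CD4 count without naive CD4 of RhM22 before. Where not stated, the cause was not tested.

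The number of peaks (naive CD8 minus naive CD4) went from -1294.5 to 821 without RhDBCb. With 1 library left out the differences in list properties kept their sign. Memory readings kept direction and call, from -32.9 to -46.4 points for CD4-only and from 22.6 to 41.9 for CD8-only regions, the smaller sizes with regions chosen in RhM22 alone. Readings in the other animal or time stayed within 1 SD at equal list length, and interaction tests called 0 there as well. Among the values of named regions under alternatives 318 kept direction and call, 34 lost the call, 5 changed in the number of open libraries and 0 turned direction. Not every named region had a value under each alternative. At equal list length 6 of the regions named for width and 8 of those named for rank were tested.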
